A study of Homo sapiens with 8 samples.

Results

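The 10 genes followed here act in the G1 phase: the D-type cyclins CCND1, CCND2 and CCND3, the E-type cyclins CCNE1 and CCNE2, the cyclin-dependent kinases CDK2, CDK4 and CDK6, the retinoblastoma gene RB1 and the transcription factor gene E2F1. They were chosen by symbol, through every array feature that the platform annotation pairs with exactly that gene and that had a value in every sample. The annotation lists 53 features for them, and 52 had values (1 of 11 RB1 features had none), out of 25094 features and 13469 named genes in the whole table. The comparison set 4 sense samples against 4 antisense samples of HEK293, a line grown from fetal human kidney after transformation by DNA of adenovirus 5. Sense cells carried the KLHL29 intronic insert in pBudCE4.1 in the sense orientation, and antisense cells carried it in the antisense orientation. In both, FuGENE 6 had delivered the linearized vector, and zeocin at 50 µg/ml had selected mixed resistant populations. The 4 samples of a construct were separate thaws of frozen cells from 1 transfection, so p-values measure the spread between cultures and arrays of 1 pool, and the construct cannot be told apart from the pool that carries it. Untransfected and empty-vector cells were not analysed here, and every difference is sense minus antisense.

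D-type cyclins bind CDK4 and CDK6 when growth signals arrive, and E-type cyclins bind CDK2 later in G1. Both kinase pairs phosphorylate the RB protein, which otherwise holds E2F factors in check. Freed E2F drives genes of DNA synthesis, and also CCNE1 and E2F1 itself. HEK293 cells express adenovirus E1A, a viral protein that binds RB and releases E2F, so the brake is known to be weakened in this line, which both groups share.

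Values are linear array intensities whose absolute scale is unknown, given in units of 1000000. Column medians ran from 548 to 590 units, and log2 values of features detected in all samples correlated at r = 0.960 to 0.996 between samples. Replicates 1 and 3 of each construct carried the dye Cy3 and replicates 2 and 4 carried Cy5. The medians matched in pairs: 579 units in both sense 1 and sense 2, 590 in sense 3 and sense 4, 571 in antisense 1 and antisense 2, and 548 and 549 in antisense 3 and antisense 4. Deviations of single spots were also shared within these pairs: over 1710 features of 166 genes with at least 8 features each, they correlated at 0.20 to 0.44 within the 4 pairs and at -0.37 to 0.03 in the 24 other pairs, a description over features that share arrays. Each deviation was a spot's log2 difference from its gene's median in a sample, less the spot's own mean over the 8 samples. That centring pulls correlations below 0 by itself, so the negative values of the other pairs are partly set by it. The labels do not say which samples shared an array. Of 6 HEK293 genes checked, VIM, KRT8, KRT18, NEFM and NEFL were detected in all samples, while PAX2 read below the detection limit in all 8. Of the markers of other cells, PTPRC, PECAM1 and SLC12A1 were below the limit, AQP1, CD3E and COL1A1 read 77.5 to 340 units, and UMOD, LRP2 and DCN were not analysed here. KLHL29 itself, the host gene, read 9.13 to 15.7 units in sense and 13.1 to 17.1 in antisense, below the limit in every sample, and the strand of its probe is not given in the sources used here.

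With limma over all 8 samples, construct and dye in the model, 0 of the 52 member features passed an adjusted p of 0.05, against 17 of 25094 features in the table (0.0677%, 8 higher and 9 lower in sense, or 7 and 5 after quantile normalization). The smallest adjusted p of a member was 0.26. SEs and intervals given below treat the 8 samples as independent, although spot deviations were shared within pairs of samples. An unadjusted p under 0.05 was reached by 9 member features (17.3%), against 14.2% of all features. Of the 9, 6 were E2F1 features, which share a target and are not independent. Differences were positive for 26 member features and negative for 26, with a median of -0.01 (log2). The median was -0.04 over all features (44.7% positive) and -0.0038 over features detected in both constructs (49.4% positive). All 52 were above the inferred detection limit in all 8 samples. By their brightest features, the D cyclins, CDK4 and RB1 had positive differences, and the E cyclins, CDK2, CDK6 and E2F1 had negative ones.

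**Figure D1:**
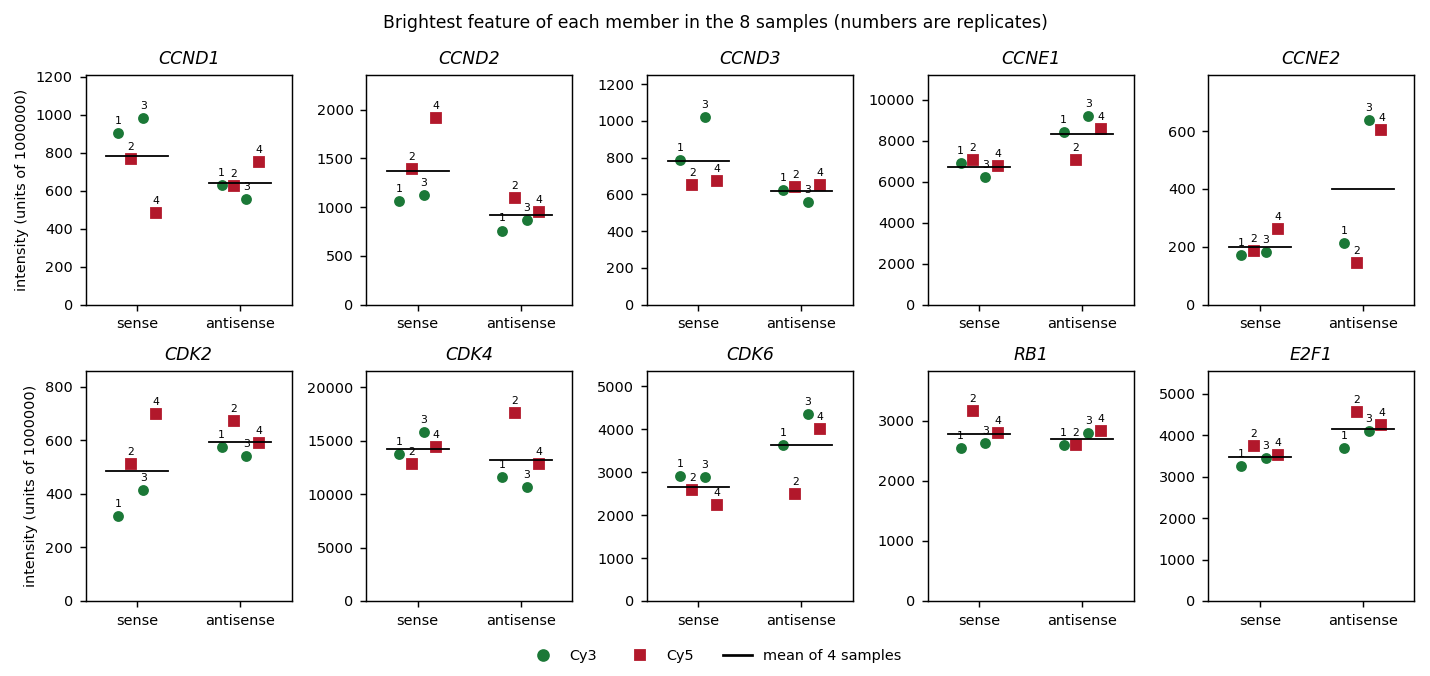
Intensity (units of 1000000, linear axis from 0) of the brightest feature of each of the 10 genes in the 4 sense and 4 antisense samples, with circles for Cy3, squares for Cy5, replicate numbers above the points and a line at the mean. CCNE1 is the gene whose groups do not overlap (6230 to 7030 units in sense and 7070 to 9200 in antisense), and CCNE2 is high in antisense 3 and antisense 4 (638 and 603 units).

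In 5 of the 52 features every sense sample lay below every antisense sample, and in 0 every sense sample lay above. Over all features these patterns were found in 3.04% and 3.35%. The 5 were the CCNE1 feature and 4 of the 10 E2F1 features. Those 4 read the same RNA on the same arrays and are not independent. The stretches of 250 bases before the starts of E2F1 and CCNE1 are shown because these genes had the separated groups and are known targets of E2F. They are RefSeq sequences of GRCh38.p14, E2F1 from chr20:33686386-33686635 on the minus strand and CCNE1 from chr19:29811741-29811990 on the plus strand. Capitals mark E2F words, searched on both strands as TTTCCCGC, TTTGGCGC, TTTCGCGC and TTTGCCGC.
E2F1: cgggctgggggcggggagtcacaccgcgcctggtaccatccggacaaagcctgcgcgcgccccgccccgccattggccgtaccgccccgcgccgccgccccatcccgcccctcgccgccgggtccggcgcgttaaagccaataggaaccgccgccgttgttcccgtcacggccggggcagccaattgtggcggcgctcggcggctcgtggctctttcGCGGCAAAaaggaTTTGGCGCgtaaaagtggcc
CCNE1: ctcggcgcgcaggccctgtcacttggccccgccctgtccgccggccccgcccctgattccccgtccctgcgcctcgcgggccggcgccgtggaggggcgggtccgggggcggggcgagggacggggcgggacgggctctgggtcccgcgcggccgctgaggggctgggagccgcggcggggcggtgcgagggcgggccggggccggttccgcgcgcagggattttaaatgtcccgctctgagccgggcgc
E2F1 held 2 such words, TTTGGCGC and, on the opposite strand, TTTGCCGC, without overlap, and CCNE1 held 0. Of all 35116 windows of this length 2.79% held at least 1, and of the 15753 windows of measured genes 3.99% did. The windows of the table cover 6 of the 10 members in 9 windows, and E2F1 was the 1 member of these with a word. GC boxes (GGGCGG, either strand) numbered 5 in the E2F1 window and 7 in the CCNE1 window. At least 1 was held by 42.6% of all windows and by 59.9% of the windows of measured genes. Neither E2F word overlaps a GC box in the sequence shown.

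CCND1 encodes cyclin D1, a D cyclin induced by mitogens. Its brightest feature, 16833, read 903, 764, 984 and 484 units in sense 1 to 4, against 630, 622, 557 and 751 in antisense 1 to 4. Sense 1, 2 and 3 were above all antisense samples, and sense 4 was the lowest of the 8. The log2 mean was 29.50 ± 0.46 in sense and 29.25 ± 0.18 in antisense (SD, n = 4 each), a difference of 0.25 (SE 0.21, adjusted p = 0.57, limma). Of its 12 features 11 had positive differences, and all lay between -0.10 and 0.31. These features read the same RNA on the same arrays and are not independent. Without sense 4 the difference of feature 16833 was 0.47 (adjusted p = 0.24), and without antisense 3 it was 0.13 (adjusted p = 0.86).

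The 12 CCND1 features differed by 0.20 to 0.82 within the Cy3 samples and by -0.43 to -0.17 within the Cy5 samples, 2 against 2 in each dye. Feature 16833 gave 0.67 in Cy3 and -0.17 in Cy5. The difference between the dyes was tested as a construct by dye term, added after the values were seen. It had an unadjusted p of 0.042 for feature 16833 and an adjusted p of 0.95 over all features. Sense 4, a Cy5 sample, is 1 of the 2 samples left out by the study's stated rule on the coefficient of variation. That rule keeps, in each construct, the 3 samples with the lowest mean coefficient of variation, and so lowers the spread. Which samples it leaves out was computed here from the deposited values.

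CCND2 encodes cyclin D2. Its feature 17309 read 1060, 1390, 1120 and 1910 units in sense 1 to 4, against 760, 1090, 872 and 950 in antisense 1 to 4. Sense 1 was the only sense sample not above every antisense sample, below antisense 2. The difference was 0.55, or 1.46-fold (SE 0.15, 95% interval 0.22 to 0.88), with the smallest adjusted p among the members, 0.26. It was 0.42 within Cy3 and 0.68 within Cy5. With the samples of matching column medians fitted as a random block, the SE was 0.17 (adjusted p = 0.54, limma). The other CCND2 features, 38391 and 26465, differed by 0.38 (SE 0.24) and 0.03 (SE 0.25), so the features of this gene did not give the same size. Feature 26465 read 784 units in sense 2 and 318 to 409 in the other sense samples, against 346 to 510 in antisense.

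CCND3 encodes cyclin D3. Feature 28226 read 784, 649, 1020 and 670 units in sense 1 to 4, against 624, 642, 557 and 653 in antisense 1 to 4. Sense 2 lay just under antisense 4, and the other sense samples were above all antisense samples. The difference was 0.31 (SE 0.17, adjusted p = 0.39), with 0.60 within Cy3 and 0.03 within Cy5. Without sense 3 it was 0.18 (adjusted p = 0.71). The dimmer feature 41735 differed by 0.27 (SE 0.27), with 0.83 within Cy3 and -0.30 within Cy5.

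CDK4, the kinase partner of the D cyclins, had 1 feature. It read 13800, 12800, 15800 and 14400 units in sense 1 to 4, against 11600, 17600, 10700 and 12800 in antisense 1 to 4. Antisense 2 was the highest of all 8 samples, and the groups overlapped. The difference was 0.13 (SE 0.16, 95% interval -0.22 to 0.48, adjusted p = 0.70). It was 0.41 within Cy3 and -0.14 within Cy5, with an adjusted p of 0.95 for the difference between the dyes. Without antisense 2 it was 0.28 (adjusted p = 0.32), and without sense 3 it was 0.04 (adjusted p = 0.95). After quantile normalization it was 0.26 (SE 0.17, adjusted p = 0.58, limma).

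CDK6, the other partner of the D cyclins, had a difference of the opposite sign to that of CDK4 over all 8 samples. The interval of CDK4 spanned 0, and within Cy5 both genes were negative. Feature 28438 read 2910, 2580, 2880 and 2230 units in sense 1 to 4, against 3640, 2490, 4360 and 4010 in antisense 1 to 4. All sense samples were below antisense 1, 3 and 4, while antisense 2 lay below all sense samples but sense 4. The log2 mean was 31.30 ± 0.18 in sense and 31.72 ± 0.36 in antisense (SD, n = 4 each). The difference was -0.43, or 1.35-fold lower in sense (SE 0.16, adjusted p = 0.31). It was -0.46 within Cy3 and -0.40 within Cy5. The second, dimmer feature, 39302, differed by -0.28 (SE 0.17), or -0.15 within Cy3 and -0.40 within Cy5, with 159 to 250 units in sense and 217 to 273 in antisense. Without sense 4 and antisense 2, which the stated rule removes, feature 28438 differed by -0.52 with an adjusted p of 0.037 (limma). It was the only member feature limma called in that setting, where 4.25% of all features were called. The rule lowers the spread on which this p-value rests, and antisense 2 was the antisense sample that overlapped sense.

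**Figure D2:**
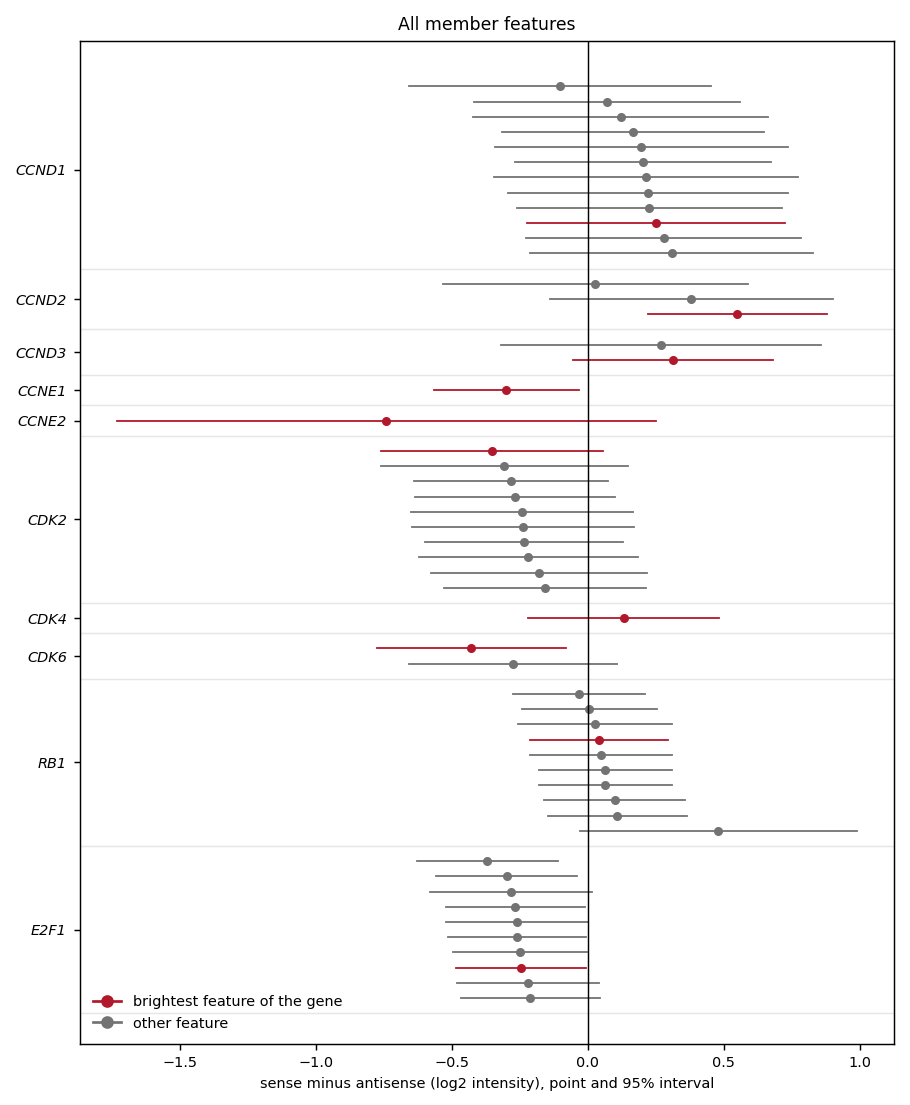
Sense minus antisense difference in log2 intensity (point) with its 95% interval (line) for all 52 features of the 10 genes, with the brightest feature of each gene in red. The 10 E2F1 features lie between -0.37 and -0.21 and the 10 CDK2 features between -0.35 and -0.16, while 9 of the 10 RB1 features lie between -0.03 and 0.11 and feature 22826 at 0.48.

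CCNE1 encodes cyclin E1, the partner of CDK2 at the entry into S phase. Its 1 feature read 6890, 7030, 6230 and 6750 units in sense 1 to 4, against 8410, 7070, 9200 and 8550 in antisense 1 to 4. The groups did not overlap, although antisense 2 lay close to sense 2. The log2 mean was 32.65 ± 0.08 in sense and 32.95 ± 0.16 in antisense (SD, n = 4 each). The difference was -0.30, or 1.23-fold lower in sense (SE 0.12, 95% interval -0.57 to -0.03), and its adjusted p of 0.33 did not pass. It was -0.43 within Cy3 and -0.17 within Cy5. After quantile normalization it was smaller, -0.21 (SE 0.11, adjusted p = 0.49, limma). With the samples of matching column medians fitted as a random block, the SE was 0.14 (adjusted p = 0.54, limma).

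CCNE2 encodes cyclin E2. Its 1 feature read 170, 186, 183 and 260 units in sense 1 to 4, against 213, 144, 638 and 603 in antisense 1 to 4. Antisense 3 and antisense 4 stood apart from the other 6 samples, and antisense 1 and antisense 2 fell inside or below the range of sense. The SD in antisense was 1.08, against 0.27 in sense (log2, n = 4 each). The difference of -0.74 (SE 0.45, 95% interval -1.73 to 0.25, adjusted p = 0.42) was the largest of the members in size. It was -0.36 without antisense 3, -0.39 without antisense 4 and -1.22 without antisense 2. Antisense 3 and antisense 4 form 1 of the pairs with matching column medians and shared spot deviations, and no second CCNE2 feature was measured, so the part of a single spot in this value was not tested.

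CDK2, the kinase bound by the E cyclins, had 10 features. The brightest, 19490, read 316, 512, 414 and 697 units in sense 1 to 4, against 576, 674, 541 and 590 in antisense 1 to 4. Sense 4 was the highest of the 8 samples and sense 1 the lowest. The difference was -0.35 (SE 0.18, adjusted p = 0.39), and all 10 features were negative, from -0.35 to -0.16. As for CCND1, these features read the same RNA on the same arrays and are not independent. They differed by -0.69 to -0.35 within Cy3 and by -0.11 to 0.13 within Cy5, where 7 of the 10 were positive. For feature 19490 this was -0.63 and -0.08, and the difference between the dyes had an adjusted p of 0.95. Without sense 1 the difference was -0.22 (adjusted p = 0.64).

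**Figure D3:**
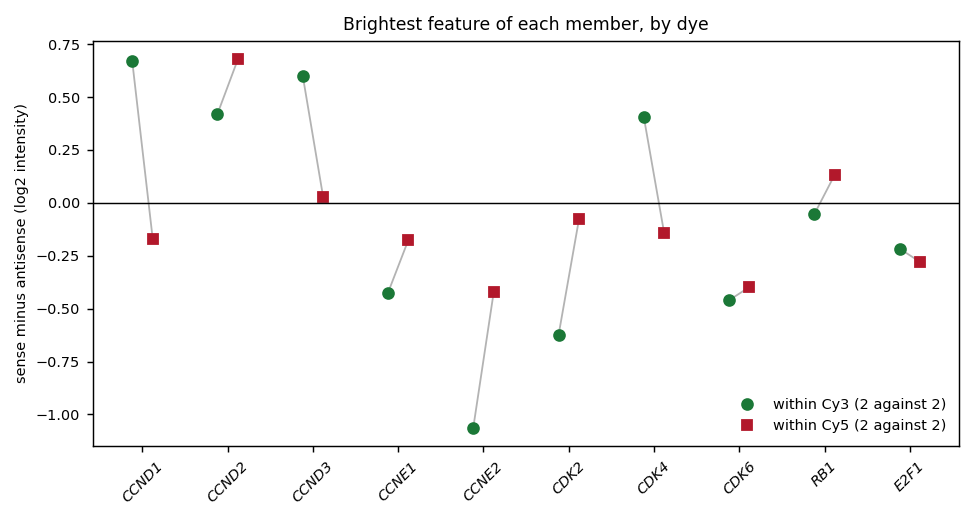
Sense minus antisense difference in log2 intensity of the brightest feature of each gene, computed within the Cy3 samples (circles) and within the Cy5 samples (squares), 2 against 2 in each. E2F1 (-0.22 and -0.28) and CDK6 (-0.46 and -0.40) have the same sign in both dyes. CCND1 (0.67 and -0.17), CDK4 (0.41 and -0.14) and RB1 (-0.05 and 0.13) change sign.

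E2F1 encodes the activating E2F factor held by RB. Its brightest feature, 20802, read 3250, 3730, 3440 and 3520 units in sense 1 to 4, against 3690, 4560, 4090 and 4240 in antisense 1 to 4. Only sense 2 and antisense 1 overlapped. The log2 mean was 31.70 ± 0.08 in sense and 31.94 ± 0.13 in antisense (SD, n = 4 each). The difference was -0.25, or 1.19-fold lower in sense (SE 0.11, 95% interval -0.49 to -0.01, adjusted p = 0.34). With the samples of matching column medians fitted as a random block, the SE was 0.13 (adjusted p = 0.55, limma). All 10 features were negative, from -0.37 to -0.21, with adjusted p from 0.28 to 0.39, and 6 had an unadjusted p under 0.05. As for CCND1, features of E2F1 read the same RNA on the same arrays and are not independent. Their range was also given for each dye. Within Cy3 the 10 features ran from -0.30 to -0.15 and within Cy5 from -0.44 to -0.26. Feature 29358, with the largest difference, read 2800, 3190, 3250 and 3350 units in sense 1 to 4, against 3410, 4550, 4040 and 4330 in antisense 1 to 4, and its groups did not overlap. Leaving out any 1 sample kept the difference of feature 20802 between -0.28 and -0.22. After quantile normalization that difference was smaller, -0.18 (SE 0.10, adjusted p = 0.53, limma).

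RB1 encodes the retinoblastoma protein. Its brightest feature, 12179, read 2550, 3160, 2630 and 2790 units in sense 1 to 4, against 2590, 2590, 2790 and 2830 in antisense 1 to 4. All antisense samples lay within the range of the sense samples. The difference was 0.04 (SE 0.11, 95% interval -0.21 to 0.29, adjusted p = 0.88), with -0.05 within Cy3 and 0.13 within Cy5. It was -0.01 without sense 2 and -0.0046 without antisense 2.

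Feature 30203 was the 1 RB1 feature with a negative difference, -0.03 (SE 0.11). Feature 22826, singled out after its values were seen, differed by 0.48 (SE 0.23, adjusted p = 0.37), while the 9 others lay between -0.03 and 0.11. It read 3640 and 4170 units in sense 1 and 2, where the 9 others read 2360 to 3190, and 1810 and 1740 in antisense 1 and 2, where the others read 2250 to 2670. In replicates 3 and 4 it read 0.98 to 1.06 times the median of the others in both constructs. It thus stood apart in the same way in both samples of a pair with matching column medians, above the other features in the sense pair and below them in the antisense pair. CCND1 feature 40691, the 1 CCND1 feature with a negative difference (-0.10, SE 0.25), did not follow that pattern. It read 0.82, 1.08, 0.50 and 0.76 times the median of 10 other CCND1 features in sense 1 to 4, and 0.83, 1.15, 1.01 and 0.84 times in antisense 1 to 4. It was below the range of the others in sense 1, 3 and 4 and in antisense 1 and 4, above it in antisense 2, and on opposite sides of the median in the 2 samples of 3 of the 4 pairs.

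**Figure D4:**
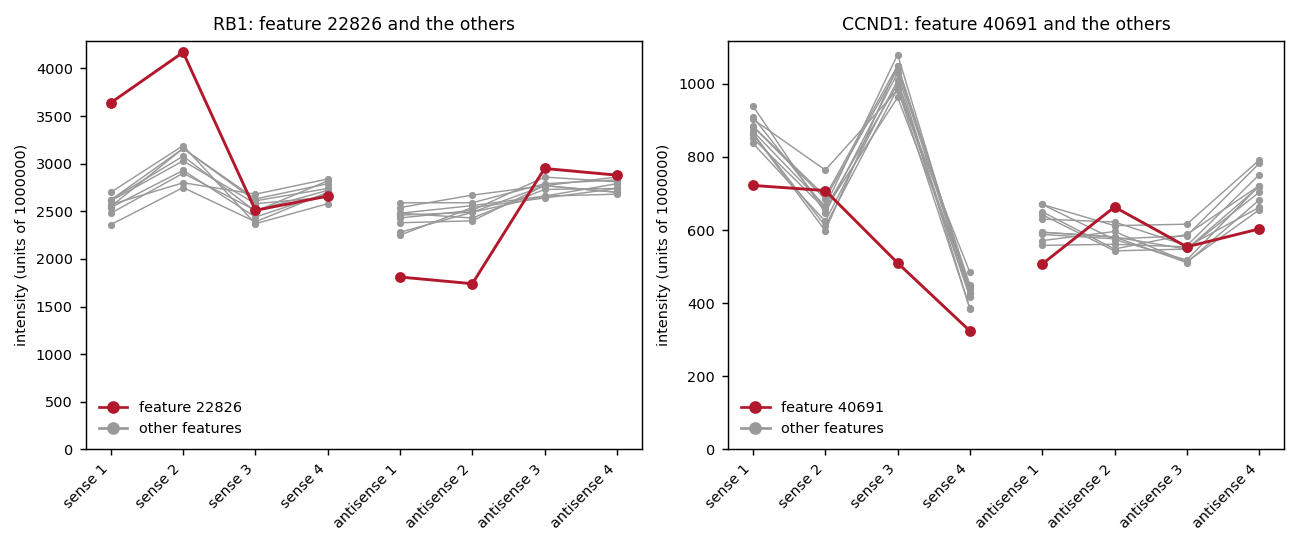
Intensity (units of 1000000, linear axis from 0) of each RB1 feature (left) and each CCND1 feature except the dim feature 279 (right) in the 8 samples, with 1 feature of each gene in red. RB1 feature 22826 lies above the others in sense 1 and 2 and below them in antisense 1 and 2, and CCND1 feature 40691 lies below the others in sense 1, 3 and 4 and antisense 1 and 4, and above them in antisense 2.

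Within the dyes, limma called 14 of the 52 member features in the Cy3 samples (26.9%), where it called 11.5% of all features, and 0 in the Cy5 samples, where it called 0.0159%. An unadjusted p under 0.05 was reached by 28 member features in Cy3 (53.8%), against 30.7% of all features. In Cy5 it was reached by 1 (1.92%), against 2.55%. Features of the same gene are not independent in these shares. Of the 14, 10 were CCND1 features, all positive, and these share a target. The other 4 were the single features of CCNE1 (-0.43) and CDK4 (0.41), CDK6 feature 28438 (-0.46) and CDK2 feature 34292 (-0.69). Each such fit has 2 samples a construct and assumes that features of like intensity vary alike.

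The study's stated design uses SAM (significance analysis of microarrays) followed by a filter of 1.4-fold. Its rule, applied here to the deposited values, left out sense 4 and antisense 2. On the other 6 samples 0 member features were called at a false discovery rate of at most 5.4%, where 1.81% of all features were. At 10.3%, 3 were called, against 6.18% of all features. They were CCNE2, lower in sense (-1.27), and 1 feature each of CCND2 (38391, 0.67) and CCND1 (42511, 0.57). Limma on the same 6 samples gave an unadjusted p under 0.05 for 25 of the 52 (48.1%), against 24.96% of all features, and most members have several features that share a target. These SAM and limma results rest on samples kept for their low spread, not on the spread of all 8 samples. The 3 antisense samples kept for CCNE2 read 213, 638 and 603 units, with the lowest close to the sense samples at 170, 186 and 183.

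Other genes of the pathway were read by the brightest feature of each. For the sign counts that follow, 44.7% of all features and 49.4% of those detected in both constructs were positive. The CDK inhibitors, which block these kinases, were positive for 5 of 6 measured genes with a median of 0.42 (0.48 within Cy3 and 0.46 within Cy5). The median was -0.04 over all features and -0.0038 over those detected in both constructs. CDKN1A, which encodes p21, averaged 31.68 ± 0.55 in sense and 30.37 ± 0.37 in antisense (log2, SD, n = 4 each), with groups that did not overlap and a difference of 1.32 (SE 0.22, adjusted p = 0.0999). Of the 37 features of these inhibitors 1 passed the threshold, CDKN1A feature 25127, against 0.0677% of all features. Its difference was 1.47 (SE 0.21), with an adjusted p of 0.0496 (limma), just under the threshold. CDKN1B, encoding p27, differed by 0.48 (SE 0.18, adjusted p = 0.31), and CDKN2B, encoding p15, by 0.60 (SE 0.25, adjusted p = 0.33).

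The relatives of RB and E2F and their partners in the DREAM repressor complex were balanced, with 8 of 16 measured genes positive, a median of 0.02 (-0.05 within Cy3 and 0.13 within Cy5) and 0 past the threshold. LIN52, a DREAM subunit, had the smallest p among them (difference 0.42, SE 0.19, adjusted p = 0.36), and no sense sample of it overlapped an antisense sample. MYBL2, a partner of the same complex later in the cycle, differed by 0.35 (SE 0.17), and TFDP2, which pairs with E2F factors, by 0.44 (SE 0.32). Genes of CDK activation and cyclin turnover were negative for 13 of 15, with a median of -0.14 (-0.12 within Cy3 and -0.21 within Cy5) and 0 past the threshold. SKP2, the ubiquitin ligase subunit that removes p27, differed by -0.49 (SE 0.19, adjusted p = 0.32), CKS1B, its cofactor, by -0.26 (SE 0.12) and CUL1, the ligase scaffold, by 0.27 (SE 0.12).

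Of 19 measured E2F target genes, 12 were negative and 7 positive, with a median of -0.09 (-0.05 within Cy3 and -0.10 within Cy5) and 0 past the threshold. EZH2, a histone methyltransferase, differed by -0.45 (SE 0.13, adjusted p = 0.27), and its differences were -0.55 within Cy3 and -0.34 within Cy5. RRM1, the large subunit of ribonucleotide reductase, differed by -0.33 (SE 0.12, adjusted p = 0.31), with every sense sample below every antisense sample. PCNA, the sliding clamp of replication, lay on the other side at 0.25 (SE 0.15, adjusted p = 0.43). Among 8 measured genes that feed into cyclin D transcription, 6 were positive and the median was 0.23 (0.54 within Cy3 and 0.07 within Cy5), with 0 past the threshold. JUN differed by 0.92 (SE 0.18, adjusted p = 0.19), with 1.22 within Cy3 and 0.61 within Cy5. AKT1 differed by 0.62 (SE 0.24), with 1.10 within Cy3 and 0.13 within Cy5, and MAPK3 by 0.46 (SE 0.24), with 0.83 within Cy3 and 0.08 within Cy5.

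**Figure D5:**
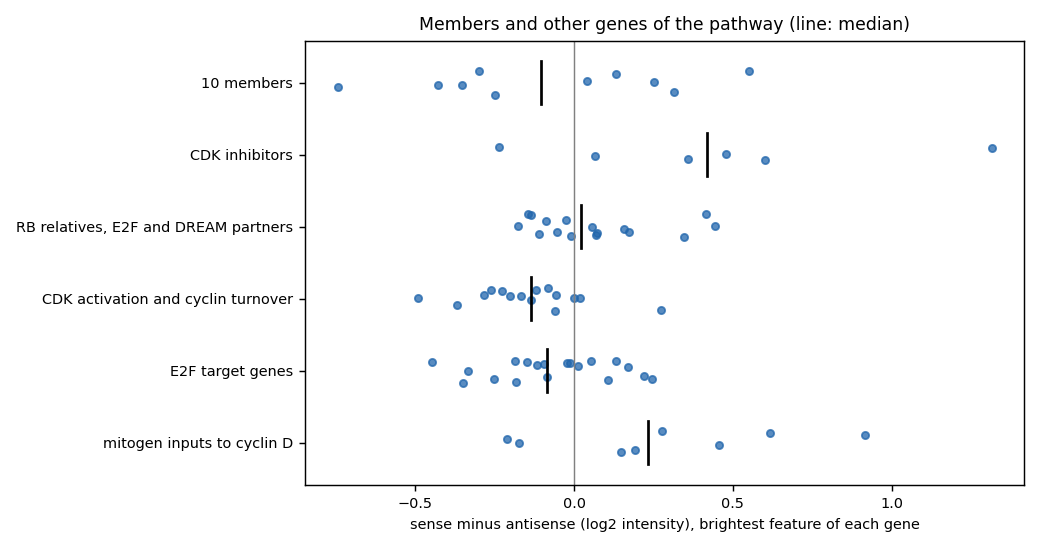
Sense minus antisense difference in log2 intensity of the brightest feature of each gene (points, spread vertically for legibility) for the 10 members and for 5 other lists of the pathway, with a line at each median. The members spread from -0.74 to 0.55, and the CDK inhibitors have the highest median, 0.42, with CDKN1A at 1.32.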

How the data were processed

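Total RNA of 8 samples was labelled with Cy3 or Cy5 and read on Agilent arrays with Feature Extraction 9.5, per the submitters' processing notes. The deposited values are linear intensity values, scaled between samples by the 40% trimmed mean, per the design text, which also removed any feature that was expressed in a part of a construct's samples. How background and dye were corrected is not given in the sources used here. Values carry at most 3 significant digits. Of 45015 features, 25094 had values, and 20901 of these have 1 gene in the platform annotation, 46 several and 4147 none listed here.

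Each sample's detection limit (24.2 to 72.2 units) was set so that the fewest features were mixed within a construct (1 in sense, 0 in antisense). Log2 values were fitted with limma 3.58.1 in R 4.3.3, with construct and dye, eBayes with trend and Benjamini-Hochberg adjustment over all features. All adjusted p-values are from limma. Fits were tested on simulated data. SAM was written for this work with all 20 permutations of 3 against 3 samples. The titles give each sample's orientation. The 10 members, the lists and the tests were chosen with earlier results of these data known. The text names every member by its brightest feature, and other features of a member that differ in sign or pass the threshold. It also gives the other features of CCND2, CCND3 and CDK6, and features picked by their values, such as the E2F1 feature with the largest difference. In each other list it names the 3 genes with the smallest p and any with a feature past the threshold. Precision is limited by the number of arrays. Alternatives were the dye term, a replicate block, quantile normalization, detected features only, no trend, each dye alone, the stated 6 samples, a random block of samples with matching medians, each sample left out and, added after the data were seen, features of a gene averaged and a construct by dye term.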

Additional observations from a re-analysis of the deposited data

How the results depend on the processing

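Over all features, 17 were called with all 8 samples, 7 with the replicate block, 7 with the random block of samples with matching medians, 1 with detected features only, 10 without the trend, 10 with features of a gene averaged, 2888 within Cy3, 4 within Cy5, 1066 by limma on the stated 6 samples, 453 and 1550 by SAM at 5.4% and 10.3%, and 4 to 20 with each sample left out. Member features called numbered 14 within Cy3, 1 by limma on the 6 samples, 3 by SAM at 10.3% and 0 in every other alternative run. The median difference of member features was -0.17 within Cy5 and -0.082 to 0.025 with each sample left out. Within Cy3 the brightest features of CCND1 (0.67), CCNE1 (-0.43), CDK4 (0.41) and CDK6 (-0.46) passed, and RB1 turned to -0.054. Within Cy5 CCND1 turned to -0.17 and CDK4 to -0.14. CDK6 passed at -0.52 in limma on the 6 samples, and CCNE2 at -1.27 in SAM at 10.3%. Both used samples whose spread the stated rule had lowered. RB1 ran from -0.015 to 0.080 with each sample left out. The causes were not tested. In 7 of the 20 alternatives the difference could not change from the 8-sample or 6-sample fit by their construction. In the other 13, the brightest features of the 7 members not named as turning kept their direction, but 7 of 10 CDK2 features were positive within Cy5, CCND3 feature 41735 was -0.30 within Cy5 and CCND2 feature 26465 was -0.02 within Cy3. Samples of equal replicate number in the 2 constructs had correlations of deviations of 0.28, 0.00, 0.11 and -0.11 for numbers 1 to 4. Sense 1 correlated most with antisense 1, while sense 2, 3 and 4 correlated most with antisense 4, 1 and 2. These values do not settle whether such samples were paired. With the replicate block 0 member features passed.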
